A study of Homo sapiens with 9 samples.

Results

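The genes described here are 9 amino acid transporters of the plasma membrane, taken by symbol (SLC7A11, SLC3A2, SLC7A5, SLC7A6, SLC7A1, SLC1A4, SLC1A5, SLC38A1 and SLC38A2) from the 26929 genes of the deposited expression table. All 9 were in the table and all 9 passed the filter on low values, a mean of at least 5 normalised counts, which 12301 genes passed. The cells were MV4-11, an established human acute myeloid leukaemia line, kept in medium with 10% serum and 2 mM glutamine. For 24 h, 3 libraries each were exposed to the solvent DMSO, to JPX-0700 or to JPX-0750, which the series' title describes as degraders acting on both STAT3 and STAT5. The labels give no dose, so the compounds could not be compared at a known matched dose. They also do not say whether replicates were separate cultures, and p-values then measure only the spread between these samples, which may be technical.

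Amino acid transporters set which building blocks, fuels and redox precursors a cell can draw from its surroundings. SLC3A2 is a heavy chain (4F2hc, CD98) that carries light chains to the cell surface, and each light chain fixes the substrate: SLC7A11 (xCT) brings in cystine in exchange for glutamate, SLC7A5 (LAT1) brings in leucine and other large neutral amino acids, and SLC7A6 (y+LAT2) exchanges arginine for neutral amino acids. The others work without that heavy chain, and several of the 9 are known targets of the transcription factor ATF4, which is made when the kinases of the integrated stress response slow translation. In acute myeloid leukaemia, glutamine uptake and cystine uptake have both been studied as metabolic needs of the leukaemic cells.

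The libraries held 726043 to 6305586 reads on genes, and the treated ones were the shallower: 2701317 to 6305586 under DMSO, 739418 to 1852375 under JPX-0700 and 726043 to 1941860 under JPX-0750. Thus 1 read was worth 0.383 to 4.61 normalised counts, the authors' values scaled per library. Structured noncoding RNAs (504 genes) took 0.0390% to 0.235% of reads under DMSO, 8.15% to 10.1% under JPX-0700 and 11.1% to 13.5% under JPX-0750. The library with the fewest genes detected was replicate 1 for DMSO (9816) and replicate 3 for either compound (10027 and 10407). The other treated libraries detected 13647 to 14616 genes. Replicate 3 of either compound nevertheless had the most reads of its group (1852375 and 1941860). All 12 listed myeloid marker genes had reads under DMSO, at a summed 6185 to 9904 normalised counts, against 3052 to 5213 under JPX-0700 (MPO at 0) and 2489 to 4540 under JPX-0750 (HOXA9 at 0). Summed markers of T and NK, B, erythroid, and epithelial and fibroblast cells reached at most 129.9 normalised counts in any list and library. The part of depth, structured RNA and marker levels in the results below was not tested. In such bulk RNA, fewer cells of a type and less RNA per cell cannot be told apart.

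The cystine carrier was the member with the largest difference. SLC7A11 transcripts were scarce in vehicle-treated cells (58 reads over 3 libraries) and rose 46.1-fold under JPX-0700 and 27.2-fold under JPX-0750, and its heavy chain SLC3A2 rose 3.76-fold under JPX-0700. SLC38A2 lay above DMSO, and the neutral amino acid exchanger SLC1A4 below it, in every library of both compounds, without passing the test. With JPX-0700, 2 of the 9 rose and 0 fell (limma, Benjamini-Hochberg adjusted p under 0.05), where 5.77% of all genes tested were called (5.28% higher and 0.496% lower). With JPX-0750, 1 of the 9 rose and 0 fell, where 3.98% of all genes were called (3.9% higher and 0.0732% lower). Both comparisons use the same DMSO libraries. Of the genes called, 91.4% were higher under JPX-0700 and 98.2% under JPX-0750, but 54.5% and 82.2% when libraries were scaled to total reads, and 78.1% and 93.1% with TMM scaling. Scaled to total reads, 1 member rose (SLC7A11) and 1 fell (SLC1A5) under JPX-0700. At an unadjusted p under 0.05 there were 3 higher and 2 lower members with each compound, against 19.6% of all genes under JPX-0700 and 14.2% under JPX-0750. The voom weights of limma on recovered reads called SLC7A11 and SLC3A2 under JPX-0700 and SLC7A11 under JPX-0750, and 0 members lower. The members' median log2 fold change was -0.04 under JPX-0700 and 0.55 under JPX-0750, beside 0.14 and 0.26 for all genes tested. Of the 9 log2 fold changes, 4 lay above 0 and 5 below under JPX-0700, and 5 above and 4 below under JPX-0750. None of those below 0 passed in this fit.

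**Figure D1:**
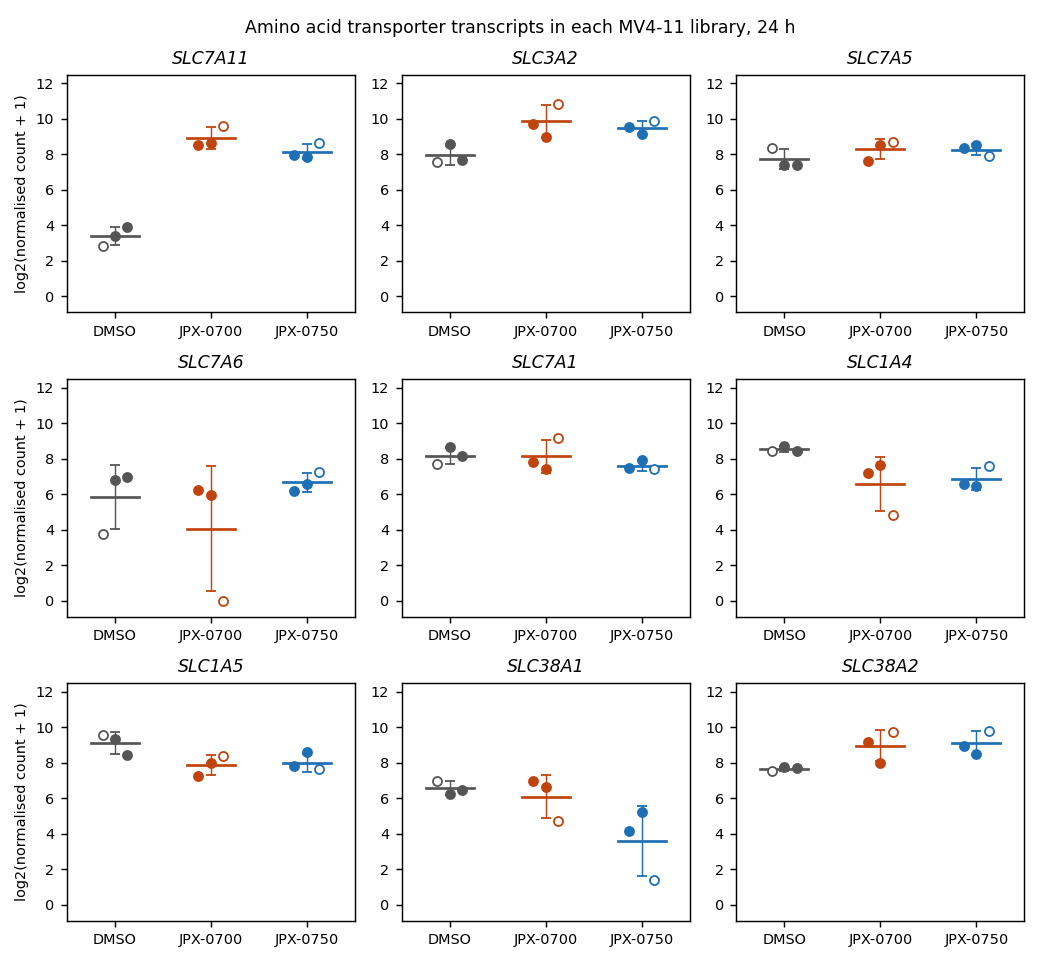
Each panel plots log2(normalised count + 1) of 1 transporter in each of the 9 libraries, with the mean (bar) and SD (whiskers) of the 3 replicates per group. Open circles are the library of each group with the fewest genes detected. The 3 DMSO points of SLC7A11 lie far below all 6 treated ones, whereas for SLC7A5, SLC7A6 and SLC7A1 the groups overlap.

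The start-site windows of these genes were read for 3 short motifs, since several of the genes are known to share regulators. RefSeq windows on GRCh38.p14, 250 bases before to 50 after a gene's start, were at hand for 8 members (14 windows, as a gene can have several starts). SLC7A11 is the member without one. The first motif was the C/EBP-ATF response element bound by ATF4, searched as TGATGNAAN on both strands. It was found in windows of 5 of the 8 members (SLC3A2, SLC7A1, SLC1A4, SLC1A5 and SLC38A1), where 1215 of all 27305 genes had a match. By window, 3.61% of all 35116 had one. The 5 stretches are shown because they come from members that lay above DMSO, below it and level with it. Each reads 5′ to 3′ on the strand of its gene, with the motif in capitals, reverse-complemented in SLC3A2 and SLC1A4:
SLC3A2: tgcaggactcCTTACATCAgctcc
SLC7A1: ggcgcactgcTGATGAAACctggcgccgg
SLC1A4: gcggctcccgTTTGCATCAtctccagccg
SLC1A5: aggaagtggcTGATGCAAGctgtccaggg
SLC38A1: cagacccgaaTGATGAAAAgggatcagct
They lie at chr11:62881725-62881748 (SLC3A2), chr13:29595663-29595691 (SLC7A1), chr2:64989381-64989409 (SLC1A4), chr19:46784893-46784921 (SLC1A5) and chr12:46266502-46266530 (SLC38A1). A second motif, the antioxidant response element bound by NRF2, was searched as TGACNNNGC on both strands. It occurred in windows of SLC3A2, SLC7A5, SLC7A6, SLC7A1 and SLC1A5, where 4384 of all 27305 genes (13.3% of all windows) had a match. The SLC3A2 stretch, at chr11:62881652-62881680, is shown because it belongs to the heavy chain that rose. It lies before the start that the ATF stretch of SLC3A2 follows:
SLC3A2 antioxidant element: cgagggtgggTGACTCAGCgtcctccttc
The E-box CACGTG, the core site of MYC and its relatives, was in windows of SLC7A5 and SLC1A5. Over all 27305 genes, 2396 (7.26% of all windows) had a match. None of the 3 motifs overlapped another in the members' stretches printed. A match is a run of letters and not a shown binding site, and windows without one, as for SLC38A2, say nothing of a factor.

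Among the heteromeric exchangers, SLC7A11 (chr4:138164097-138242349, minus strand) had 6.29, 9.59 and 13.997 normalised counts in the 3 DMSO libraries, from 7, 25 and 26 reads. With JPX-0700 it had 364, 391 and 789, and under JPX-0750 it had 253, 227 and 401. The lowest treated library was 16.2 times the highest DMSO library, so the groups did not overlap. The means were 9.96 ± 3.87 (SD, n = 3) under DMSO, 515 ± 238 under JPX-0700 and 294 ± 93.9 under JPX-0750. On the log2(normalised count + 1) scale, which understates the change of a gene this low in DMSO, SLC7A11 rose by 5.53 ± 0.67 (SE) under JPX-0700 (95% interval 4.12 to 6.94, limma adjusted p = 2.70e-05). It rose by 4.77 ± 0.67 under JPX-0750 (3.36 to 6.18, adjusted p = 0.000139). Of the 12301 genes, 219 had a larger log2 fold change under JPX-0700 and 337 under JPX-0750. With reads pooled over each group and set against the group's pooled depth on the authors' scale, its level was 53.3 times DMSO under JPX-0700 and 31.6 times under JPX-0750. The call held for both compounds in all 19 alternative settings, in which the log2 fold change ran from 4.76 to 5.78 and from 4.19 to 5.02. Without the 3 libraries with the fewest genes it was 4.91 and 4.26.

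SLC7A11 shares 865 exon bases with SLC7A11-AS1, an antisense RNA on the opposite strand, and which strand was counted is not stated in the labels, so reads of the pair cannot be told apart. SLC7A11-AS1 had 0 reads in the 3 DMSO libraries. It had 83.0, 96.9 and 0 normalised counts under JPX-0700 and 54.8, 72.8 and 75.0 under JPX-0750. Against a floor of 3 reads over the DMSO group, its level was at least 96.8-fold higher under JPX-0700 and at least 129-fold higher under JPX-0750. SLC7A11-AS1 rose under JPX-0750 (adjusted p = 0.0469) and did not pass under JPX-0700 (adjusted p = 0.150), where replicate 3 had no read. The JPX-0750 call held in 8 of 18 alternatives and ended when any DMSO library, any JPX-0750 library or JPX-0700 replicate 1 was left out (adjusted p = 0.0504 to 0.162).

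SLC3A2 (chr11:62856109-62888860, plus strand), the heavy chain, had 191, 382 and 205 normalised counts under DMSO. It had 853, 507 and 1854 under JPX-0700 and 733, 559 and 928 under JPX-0750. The lowest treated library exceeded the highest DMSO library, so neither compound overlapped DMSO. The log2 rise under JPX-0700 was 1.91 ± 0.52 (0.81 to 3.01, limma adjusted p = 0.0373). The difference under JPX-0750 was 1.55 ± 0.52 (0.46 to 2.65, adjusted p = 0.128), which did not pass. The JPX-0700 call was close to the threshold: it was lost when DMSO replicate 1 or 3, JPX-0700 replicate 1 or 3, or any JPX-0750 library was left out, at adjusted p from 0.0528 to 0.166. The direction held in all 19 settings for both compounds, with 7 of them keeping the JPX-0700 call. Total-sum scaling took the JPX-0700 value to 1.18 (adjusted p = 0.141) and TMM scaling to 1.60 (0.0767), and both ended the call. Scaled to equal library totals (RPM), JPX-0700 replicate 2 (152) lay below DMSO replicate 2 (158), so on that scale these groups overlapped.

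The pair that forms the cystine exchanger was also read as a ratio within each library, where scaling between libraries cancels. With DMSO there were 2.51 to 6.82 SLC7A11 reads per 100 SLC3A2 reads. With JPX-0700 there were 42.6 to 77.2, and under JPX-0750 34.6 to 43.3. Both compounds lay wholly above DMSO, by 13.6-fold and 10.3-fold on average, each with an exact two-sided permutation p of 0.1, the smallest that 3 against 3 libraries allow. In each treated library SLC7A11 thus made up more of the pair's reads than in any DMSO library.

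The leucine carrier SLC7A5 (chr16:87830023-87869507, minus strand), the other main partner of SLC3A2, had 330.5, 168 and 169.6 normalised counts under DMSO. It had 198, 373 and 422 under JPX-0700 and 325, 373 and 243 under JPX-0750. DMSO replicate 1 lay above several treated libraries, and the groups overlapped. The log2 fold change was 0.57 ± 0.53 under JPX-0700 (-0.55 to 1.70, adjusted p = 0.570), which turned to -0.15 when libraries were scaled to their total reads, and 0.55 ± 0.53 under JPX-0750 (-0.58 to 1.67, adjusted p = 0.682). The number of SLC7A5 reads per 100 SLC3A2 reads was 44.0 to 173 under DMSO, 22.8 to 73.5 under JPX-0700 and 26.2 to 66.7 under JPX-0750, with overlap and exact permutation p of 0.2 and 0.3. SLC7A5P2 is named as a copy of SLC7A5. Their sequences were not compared, so whether it takes reads from SLC7A5 was not tested. SLC7A5P2 had 10 reads over the DMSO group, 53 under JPX-0700 (0 in replicate 3) and 119 under JPX-0750. With reads pooled, its level was 35.0 times (17.6 to 77.1, counting error only) and 59.7 times (31.3 to 128) that of DMSO. The limma log2 difference was 3.40 under JPX-0700 (-0.07 to 6.87, adjusted p = 0.265), where the groups overlapped. It was 5.62 under JPX-0750 (2.15 to 9.09, adjusted p = 0.0689), so neither passed. SLC7A5 is reported as uncertain, since the labels do not say how reads with several matching places were counted.

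SLC7A6 (chr16:68264526-68301819, plus strand) had the largest standard error of the 9 in both comparisons. It had 12.6, 109 and 125 normalised counts under DMSO, 73.7, 59.6 and 0 under JPX-0700, and 71.9, 95.5 and 149.9 under JPX-0750. The low values of DMSO replicate 1 (14 reads) and JPX-0700 replicate 3 (0 reads, which allows up to 8.34 normalised counts) set its spread, and the groups overlapped. Its log2 fold change was -1.79 ± 1.41 under JPX-0700 (adjusted p = 0.494) and 0.83 ± 1.41 under JPX-0750 (adjusted p = 0.835). The first turned to 0.23 without JPX-0700 replicate 3, and the second to -0.21 without DMSO replicate 1. SLC7A6 also shares 3371 exon bases with SLC7A6OS on the opposite strand, which had 13 reads in all 9 libraries together.

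**Figure D2:**
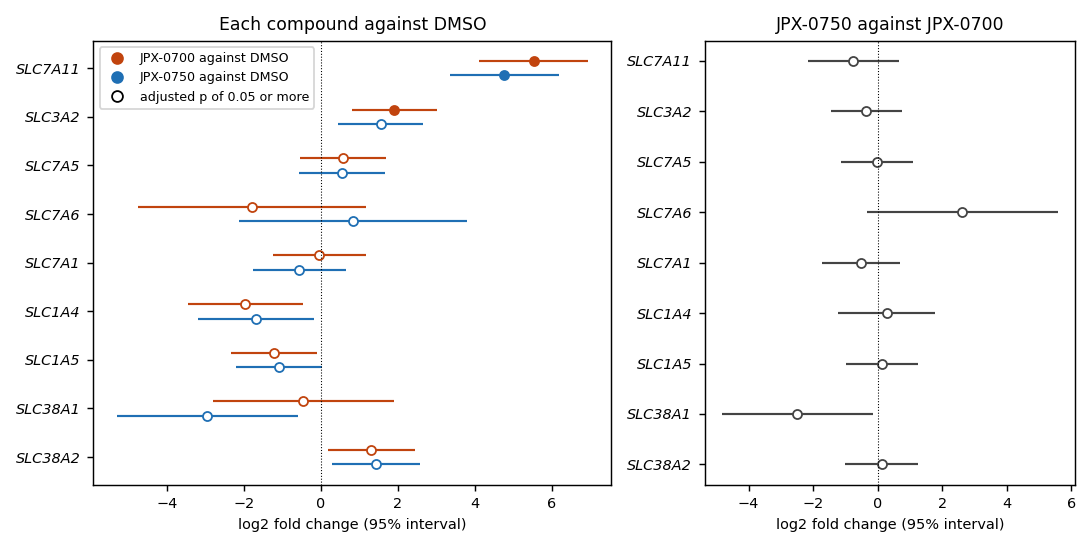
The left panel plots the limma log2 fold change against DMSO of each member with its 95% interval, in red for JPX-0700 and blue for JPX-0750, and the right panel that of JPX-0750 against JPX-0700. Filled circles passed an adjusted p of 0.05: SLC7A11 with both compounds and SLC3A2 under JPX-0700. In the right panel the interval of SLC38A1 alone excludes 0, and no member passed.

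SLC7A1 (CAT1, chr13:29509414-29595688, minus strand), the carrier of arginine and lysine, had 208, 398 and 280.5 normalised counts under DMSO. It had 221, 168 and 575 under JPX-0700 and 178, 241 and 167 under JPX-0750, and the groups overlapped. On the RPM scale JPX-0750 (48.6 to 73.0) lay wholly below DMSO (85.9 to 165). Its log2 fold change was -0.04 ± 0.57 under JPX-0700 (-1.25 to 1.16, adjusted p = 0.978), with a sign that turned in 4 of 19 settings, and -0.57 ± 0.57 under JPX-0750 (-1.77 to 0.64, adjusted p = 0.695). Both intervals include 0. In normalised counts, JPX-0700 replicate 3 was the highest of all 9 libraries for this gene, as it was for SLC7A11, SLC3A2 and SLC7A5. Its normalised counts summed to 5.15e+06, against 2.17e+06 to 3.66e+06 in the others. In RPM it was still the highest for SLC7A11 (153) and SLC3A2 (360). For SLC7A1 (112) it lay below DMSO replicate 2 (165), and for SLC7A5 (82.1) below DMSO replicate 1 (136).

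The 2 sodium-dependent neutral amino acid exchangers of the SLC1 family had lower means than DMSO with both compounds, and neither passed the test. SLC1A4 (ASCT1, chr2:64988479-65023865, plus strand), which exchanges alanine, serine and cysteine, had 350.2, 419.9 and 345 normalised counts under DMSO. It had 147, 201 and 27.8 under JPX-0700 and 92.4, 86.4 and 188 under JPX-0750. All 6 treated libraries were below all 3 DMSO libraries, with group means of 372 ± 42.0 (SD, n = 3), 126 ± 88.8 and 122 ± 57.1. The log2 difference was -1.96 ± 0.71 under JPX-0700 (-3.47 to -0.46, adjusted p = 0.129) and -1.68 ± 0.71 under JPX-0750 (-3.19 to -0.18, adjusted p = 0.274), so neither passed. Without the 3 libraries with the fewest genes, the JPX-0750 difference was -2.08 with an adjusted p of 0.00827 and the JPX-0700 difference -1.14 with 0.0536. SLC1A4 also passed under JPX-0750 when JPX-0700 replicate 3 was left out (adjusted p = 0.0233), and when only DMSO and JPX-0750 were fitted (0.0439).

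SLC1A5 (ASCT2, chr19:46774883-46788594, minus strand), the main glutamine exchanger of many tumour cells, had the highest DMSO mean of the 9, with 752, 649.6 and 346 normalised counts. It had 152, 257 and 331 under JPX-0700 and 226, 382 and 197 under JPX-0750. The JPX-0700 libraries were all below DMSO, whereas JPX-0750 replicate 2 exceeded DMSO replicate 3. The log2 difference was -1.23 ± 0.53 under JPX-0700 (-2.35 to -0.12, adjusted p = 0.207) and -1.10 ± 0.53 under JPX-0750 (-2.22 to 0.01, adjusted p = 0.363). Scaling to total reads took the JPX-0700 difference to -1.96 with an adjusted p of 0.0307, the one setting of 19 in which SLC1A5 passed. On the RPM scale SLC1A5 ran from 159 to 310.2 under DMSO, from 44.6 to 77.4 under JPX-0700 and from 60.8 to 116 under JPX-0750, with no overlap for either compound.

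The 2 system A importers, which use the sodium gradient to bring in glutamine, alanine and related amino acids, differed in where they lay against DMSO. SLC38A1 (SNAT1, chr12:46183063-46269043, minus strand) had 127, 74.4 and 86.1 normalised counts under DMSO and 124, 96.9 and 25.01 under JPX-0700. With JPX-0750 it had 17.1, 36.4 and 1.67, from 5, 8 and 1 reads. The JPX-0750 libraries were all below DMSO, whereas JPX-0700 replicates 1 and 2 lay within the DMSO range. The log2 difference was -0.46 ± 1.12 under JPX-0700 (adjusted p = 0.844), which turned to 0.45 without the 3 libraries with the fewest genes. It was -2.95 ± 1.12 under JPX-0750 (-5.30 to -0.60, adjusted p = 0.195), and -1.64 without those libraries (adjusted p = 0.0616). With 14 reads over the group, the JPX-0750 level of SLC38A1 rests on few reads.

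SLC38A2 (SNAT2, chr12:46358188-46372773, minus strand), whose mRNA is known to increase when amino acids run short, had 187, 214 and 204 normalised counts under DMSO. It had 585, 253 and 836 under JPX-0700 and 499.8, 359 and 901 under JPX-0750. All treated libraries exceeded all DMSO libraries, whose spread was small (202 ± 13.8, SD, n = 3). The log2 difference was 1.31 ± 0.54 under JPX-0700 (0.17 to 2.44, adjusted p = 0.186) and 1.43 ± 0.54 under JPX-0750 (0.30 to 2.57, adjusted p = 0.191), so neither passed. On the RPM scale, JPX-0700 replicate 2 (76.2) lay under the lowest DMSO library (77.0), and those groups overlapped. Within libraries there were 148 to 288 SLC38A2 reads per 100 SLC38A1 reads under DMSO, 262 to 3344 under JPX-0700 and 987.5 to 54100 under JPX-0750. The JPX-0750 ratio lay wholly above DMSO, 24.9-fold on average (exact permutation p = 0.1, the smallest possible), and the JPX-0700 ratio overlapped it (p = 0.2). JPX-0750 replicate 3 sets much of that size, with 541 SLC38A2 reads over a single SLC38A1 read: the ratio was 7.87-fold that of DMSO without it and 58.2-fold without replicate 2.

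Counted together, 3 members (SLC7A11, SLC3A2 and SLC38A2) had all JPX-0700 libraries above DMSO and 2 (SLC1A4 and SLC1A5) had all below. That is 5 of 9 without overlap, where 26.9% of all genes had none (16.5% higher and 10.3% lower). With JPX-0750 the same 3 lay above and SLC1A4 and SLC38A1 below, where 28.9% of all genes did not overlap (19.7% higher and 9.18% lower). In RPM the tally differed: JPX-0700 left 1 member above (SLC7A11) and 2 below (SLC1A4 and SLC1A5), where 31% of all genes did not overlap (9.93% higher and 21% lower). JPX-0750 left the same 3 above and 4 below (SLC1A4, SLC1A5, SLC38A1 and SLC7A1), where 32.1% did not (12.8% higher and 19.3% lower). Separation of 3 against 3 libraries was thus common among all genes on either scale.

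The members' order by normalised count differed between groups. The 3′ libraries give about 1 read per transcript whatever its length, so these orders need no length correction but still depend on how well each 3′ end was captured. By mean normalised count, SLC1A5 was first under DMSO (583 ± 211, SD, n = 3), then SLC1A4 (372), SLC7A1 (296), SLC3A2 (259), SLC7A5 (223), SLC38A2 (202), SLC38A1 (95.7), SLC7A6 (82.1) and SLC7A11 (9.96). Of the 8 pairs of neighbours in this order, 7 overlapped in their libraries, and SLC38A2 lay apart from SLC38A1. With JPX-0700, SLC3A2 was first (1071 ± 699) and SLC7A11 came after SLC38A2. With JPX-0750, SLC3A2 was again first (739.96 ± 184), with SLC38A2, SLC7A5 and SLC7A11 next and SLC38A1 last (18.4 ± 17.4). All 8 pairs of neighbours overlapped under JPX-0700, and 7 of 8 under JPX-0750, where SLC38A1 lay apart from SLC7A6.

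**Figure D3:**
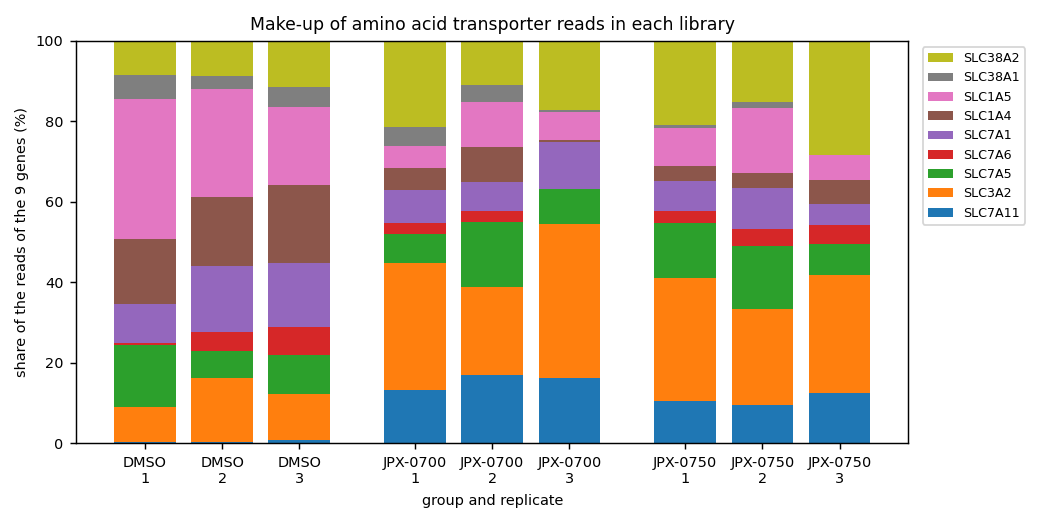
Each bar is 1 library and splits the reads of the 9 transporters into percent per gene, adding up to 100%. In the 3 DMSO bars SLC1A5 and SLC1A4 together fill more than SLC3A2 and SLC7A11 do, and in the 6 treated bars the reverse holds.

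As a share of the reads of the 9 genes, which is free of scaling between libraries, SLC7A11 took 0.290% to 0.789% under DMSO, 13.4% to 17.0% under JPX-0700 and 9.63% to 12.6% under JPX-0750. SLC3A2 took 8.83% to 15.7%, then 22.0% to 38.1% and 23.7% to 30.6%. SLC1A5 took 19.5% to 34.8% under DMSO, 5.59% to 11.1% under JPX-0700 and 6.19% to 16.2% under JPX-0750. SLC1A4 took 16.2% to 19.4% under DMSO, 0.572% to 8.72% under JPX-0700 and 3.66% to 5.93% under JPX-0750. None of these 4 overlapped DMSO with either compound. SLC7A5 (6.93% to 15.3% under DMSO), SLC7A1 (9.62% to 16.4%) and SLC7A6 (0.581% to 7.04%) overlapped DMSO with both compounds. SLC38A2 and SLC38A1 overlapped it under JPX-0700 only. Such shares were not taken for other sets of genes. Shares within a fixed total are tied to each other, so a higher share of 1 gene lowers those of the others. The 9 genes together took 0.0817% to 0.100% of all reads under DMSO, 0.0694% to 0.0944% under JPX-0700 and 0.0655% to 0.0982% under JPX-0750, which overlapped. The shares of SLC7A11, SLC3A2, SLC1A5 and SLC1A4 thus lay apart from DMSO, while the sum of the 9 genes did not.

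The compounds were also compared with each other. Of the 9 members, 0 passed between JPX-0750 and JPX-0700 (limma, smallest adjusted p = 0.848), and 0% of all 12301 genes did. At an unadjusted p under 0.05 the count was 1 member, SLC38A1, and 3.21% of all genes. All 9 members overlapped between the compounds, where 8.35% of all genes did not (4.72% higher and 3.63% lower under JPX-0750). Set side by side by replicate number, SLC7A11 and SLC38A1 were lower under JPX-0750 in 3 of 3 pairs, the other members differed in direction between pairs, and 23.3% of all genes had 1 direction in all 3. With the number as a block in a fit on both compounds alone, the difference was -0.76 for SLC7A11 (-1.83 to 0.31) and -2.49 for SLC38A1 (-4.89 to -0.09), each at an adjusted p of 0.814. The log2 difference, JPX-0750 minus JPX-0700, was -0.76 for SLC7A11 (95% interval -2.17 to 0.65) and -0.36 for SLC3A2 (-1.45 to 0.74). It was 0.13 for SLC38A2 (-1.01 to 1.26), 0.28 for SLC1A4 (-1.23 to 1.78), 0.13 for SLC1A5 (-0.99 to 1.25), -0.03 for SLC7A5 (-1.15 to 1.10) and -0.52 for SLC7A1 (-1.73 to 0.68). The widest were 2.62 for SLC7A6 (-0.34 to 5.59) and -2.49 for SLC38A1 (-4.84 to -0.14, unadjusted p = 0.0393). These intervals reach to differences of 2-fold or more in at least 1 direction for every member, so the data do not show that the compounds act alike on the transporters.

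The other amino acid transporters were counted from lists of known carriers. Of 35 others of the plasma membrane, 12 had no reads, 15 had too few to be tested and 8 were tested, of which 0 rose and 0 fell with either compound (median log2 fold change 0.05 under JPX-0700 and 1.48 under JPX-0750). At an unadjusted limma p under 0.05 there was 1 lower under JPX-0700 and 1 higher under JPX-0750, and with voom 0 and 1. Over all genes tested, 19.6% and 14.2% had an unadjusted limma p under 0.05. SLC43A1 (LAT3), a leucine carrier, had 102 to 348 normalised counts under DMSO, 11.1 to 67.1 under JPX-0700 and 11.7 to 118 under JPX-0750. Its log2 difference was -3.05 (adjusted p = 0.0973) and -2.04 (adjusted p = 0.387). Under JPX-0700 it passed in 2 of 19 settings, at -3.68 with total-sum scaling (adjusted p = 0.0424) and at -3.83 without JPX-0700 replicate 2 (0.0446). SLC36A2, a proton-coupled carrier of small amino acids, had 0 reads under DMSO, 4 under JPX-0700 and 17 under JPX-0750 (adjusted p = 0.439 and 0.244). The list of lysosomal and mitochondrial carriers also holds carriers of other substrates, such as SLC29A3 (nucleosides) and SLC25A26 (S-adenosylmethionine). Of its 24 genes 23 were tested, and again 0 rose and 0 fell (medians -0.81 and -0.57). At an unadjusted limma p under 0.05 there were 2 lower with each compound, and voom called 1 higher under JPX-0700 (SLC25A2, from 14 reads in all, named after its value was seen) and 0 under JPX-0750. The mitochondrial serine carrier SFXN1 had 79.7 to 190.4 normalised counts under DMSO, 5.56 to 124 under JPX-0700 and 5.00 to 30.8 under JPX-0750 (adjusted p = 0.443 and 0.243). Its relative SFXN3 had 77.8 to 156 under DMSO, 2.78 to 59.6 under JPX-0700 and 45.5 to 208 under JPX-0750 (adjusted p = 0.171 and 0.913). Leaving out the 3 libraries of fewest genes, 2 of the plasma membrane carriers rose with each compound and 1 fell under JPX-0750. Of the others, 2 rose under JPX-0700 and 1 rose and 2 fell under JPX-0750. Over all 12301 genes, 2601 and 2559 were called in that setting.

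**Figure D4:**
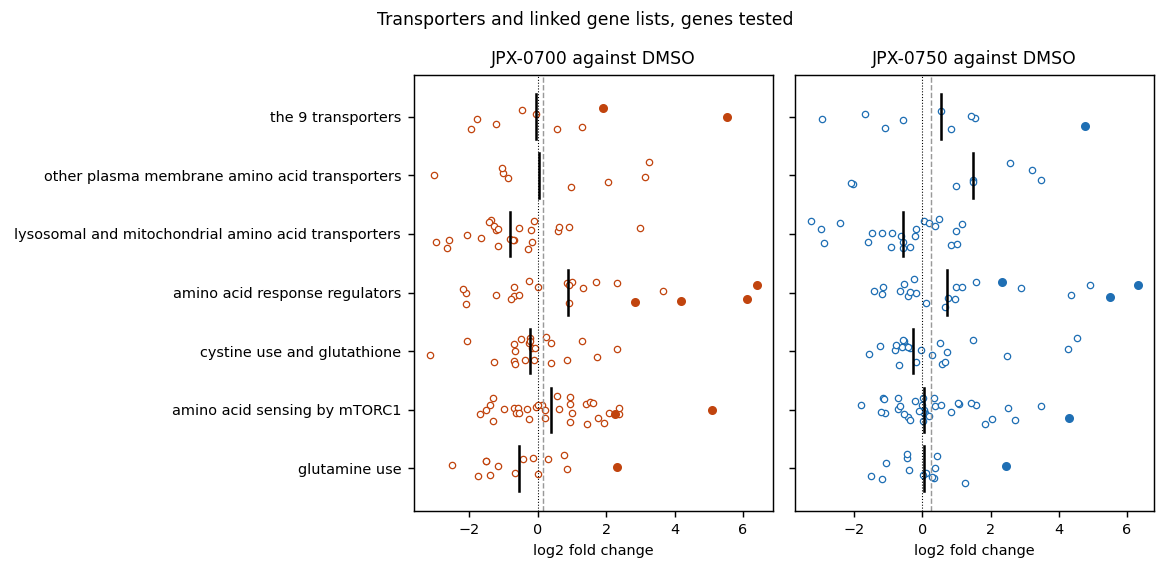
Each circle is the log2 fold change against DMSO of 1 tested gene of the 9 transporters or of 6 lists linked to them, filled where the limma adjusted p was under 0.05. Black bars are list medians and the dashed line is the median of all genes tested (0.14 and 0.26). The filled circles number 9 and 6 in the left and right panels, all to the right of 0.

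Genes that control or use amino acid uptake were counted beside the members. Over all genes tested, 5.28% rose and 0.496% fell under JPX-0700, and 3.9% rose and 0.0732% fell under JPX-0750. At an unadjusted limma p under 0.05 the shares of all genes were 19.6% and 14.2%. Of 22 regulators of the amino acid response, 4 rose under JPX-0700 and 3 under JPX-0750, and 0 fell (medians 0.87 and 0.71), with 2 and 1 lower at an unadjusted limma p under 0.05 and 0 by voom. Without the 3 libraries with the fewest genes 8 rose with each compound, and 2 fell under JPX-0700 and 1 under JPX-0750. In that setting 2601 and 2559 of all 12301 genes were called, against 710 and 489 with all libraries. Without JPX-0700 replicate 3 alone, 5 rose and 1 fell with each, where 954 and 1096 of all genes were called. Scaled to total reads, 3 and 2 rose and 1 and 0 fell, where 721 and 394 of all genes were called. DDIT3 (CHOP), a stress transcription factor, rose 84.5-fold and 80.4-fold (adjusted p = 0.000123 and 0.000146), from 0 to 16.7 normalised counts under DMSO to between 297 and 623 in the treated libraries. PPP1R15A (GADD34), which restores translation by directing the removal of phosphate from eIF2, rose 69.5-fold and 45.0-fold (adjusted p = 7.65e-08 and 2.99e-07). Its relative PPP1R15B rose 7.13-fold and 5.03-fold (adjusted p = 0.00392 and 0.0215). TRIB3, a pseudokinase that restrains ATF4, rose 18.1-fold under JPX-0700 (adjusted p = 0.0423), with a log2 difference of 2.88 for JPX-0750 (adjusted p = 0.239). Leaving out single libraries ended calls here: that of TRIB3 on dropping replicate 1 or 3 of DMSO, replicate 1 or 3 of JPX-0700, or any JPX-0750 library (adjusted p 0.0563 to 0.177), and that of PPP1R15B under JPX-0750 on dropping replicate 1 or 2 of either DMSO or JPX-0750 (0.0917 to 0.150). The log2 value of TRIB3, 4.18 with all libraries, was 3.18 without DMSO replicate 1, 3.36 without JPX-0700 replicate 3, 5.04 without DMSO replicate 2. Leaving out the 3 libraries of fewest genes gave TRIB3 2.36 (adjusted p = 0.0578). The log2 rise of DDIT3 was 6.40 under JPX-0700, but 5.13 without DMSO replicate 1, where it had no read, and 7.20 without replicate 3, and under JPX-0750 it was 6.33, 5.05 and 7.13.

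Of 22 tested genes of cystine use and glutathione, into which imported cystine feeds, 0 rose and 0 fell with either compound (medians -0.23 and -0.27). At an unadjusted limma p under 0.05 there were 0 under JPX-0700 and 2 higher under JPX-0750, and voom called the same numbers. Under JPX-0750, 2 rose without JPX-0700 replicate 3, 1 in the fit on 2 groups and 3 on leaving out the 3 libraries of fewest genes, where 2 also rose under JPX-0700. Over all genes tested, 1096, 795 and 2559 were called under JPX-0750 in those settings, and 2601 under JPX-0700 in the last. The 2 that were higher at the unadjusted threshold were CHAC1, which degrades glutathione, and CTH, which makes cysteine from cystathionine. CHAC1 had 0 to 10.7 normalised counts under DMSO, 0 to 55.9 under JPX-0700 and 78.7 to 132 under JPX-0750 (adjusted p = 0.567 and 0.151). CTH had 0 to 1.08, 0 to 29.8 and 22.7 to 41.1 (adjusted p = 0.411 and 0.158). In every JPX-0750 library both genes lay above DMSO, as did 19.7% of all genes tested, while JPX-0700 replicate 3 had no read of either.

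The 34 tested genes of amino acid sensing by mTORC1, the kinase complex that links amino acid supply to growth, had medians of 0.38 and 0.04. Of them, 2 rose under JPX-0700 and 1 under JPX-0750, near the shares of 5.28% and 3.9% over all genes tested. In this list 0 fell, with 0 lower at an unadjusted limma p under 0.05 or by voom. DDIT4 (REDD1), an inhibitor of that complex, rose 33.7-fold and 19.8-fold (adjusted p = 0.000168 and 0.00106). Its log2 rise under JPX-0700 was 5.08, but 5.75 without DMSO replicate 1, 4.45 on dropping DMSO replicate 3 and 4.33 on dropping replicate 3 of JPX-0700, and under JPX-0750 it was 4.31, and 4.98 and 3.69 without those DMSO libraries. SESN3, a member of the sestrin family of mTORC1 inhibitors, rose 4.77-fold under JPX-0700 (adjusted p = 0.0271), which no longer passed on dropping replicate 1 of JPX-0700 or replicate 1 or 2 of DMSO (0.0608 to 0.151). With JPX-0750 its log2 difference was 1.05 (adjusted p = 0.436). Of 14 tested genes of glutamine use, 1 rose with each compound (medians -0.55 and 0.06) and 0 fell, with 2 and 0 lower at an unadjusted limma p under 0.05 and 0 by voom. It was ASNS, which makes asparagine with glutamine as the nitrogen donor, at 37.1 to 82.6 normalised counts under DMSO, 207 to 411 under JPX-0700 and 263 to 325 under JPX-0750. ASNS rose 4.99-fold and 5.52-fold (adjusted p = 0.0245 and 0.0210), and either call ended on dropping replicate 2 or 3 of DMSO or replicate 1 or 2 of JPX-0750 (0.0503 to 0.141). Total-sum scaling also ended the calls of ASNS (0.100 and 0.0760), SESN3 (0.108), TRIB3 (0.0777) and, under JPX-0750, PPP1R15B (0.0928). Leaving out the 3 libraries of fewest genes, 4 sensing genes rose and 1 fell under JPX-0700, and 5 rose and 1 fell under JPX-0750. Of the glutamine genes, 2 rose and 1 fell, and 1 rose and 0 fell. Over all 12301 genes, 2601 and 2559 were called in that setting. Between the compounds 0 genes of these 6 lists passed by limma or voom.

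By a fixed measure, the root mean square difference of log2 values over the 9 libraries, each gene centred on its DMSO mean, the tested genes with a pattern nearest to SLC7A11 were DNAJC3-AS1 (0.54), NRIP2 (0.54) and ACADL (0.57), where the median gene was at 4.30. Of these, ACADL had 0 reads under DMSO and NRIP2 0 to 5.38 normalised counts, so both were even lower than SLC7A11 there. Nearest to SLC3A2 were JUNB (0.24), GTF2A1 (0.25) and C19orf60 (0.26), with the median gene at 2.19. JUNB encodes an AP-1 transcription factor and GTF2A1 a subunit of the general factor TFIIA. JUNB had 121 to 257 normalised counts under DMSO, 302 to 1645 under JPX-0700 and 387 to 751 under JPX-0750, and JPX-0700 replicate 3 was the highest library, as for SLC3A2.

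**Figure D5:**
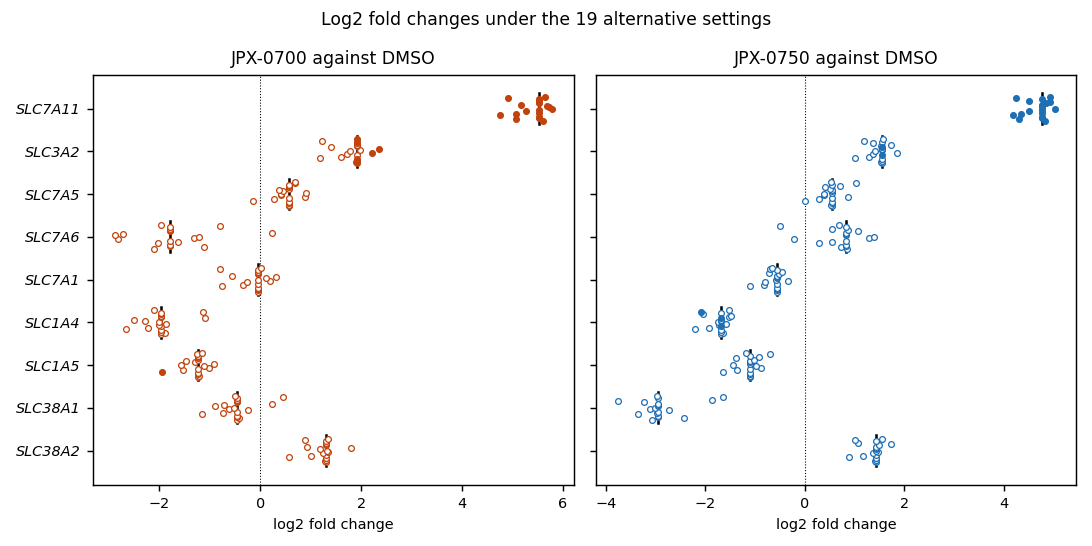
Each circle is the log2 fold change of a member against DMSO under 1 of 19 alternative settings (scaling, filter, pseudocount, model or a library left out), filled where the adjusted p was under 0.05, and the black bar is the value reported. SLC7A11 is filled throughout at 4.19 or more, SLC3A2 is filled in 7 settings under JPX-0700 and 2 under JPX-0750, and the circles of SLC7A6 span both sides of 0.

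The scale on which libraries are set side by side moves all genes together. With the authors' factors the median over all genes, on the log2 scale, was 0.14 under JPX-0700 and 0.26 under JPX-0750, with TMM factors -0.09 and 0.03, and with total reads -0.46 and -0.22. Relative to those medians SLC7A11 stood at 5.38, 5.15 and 5.22 under JPX-0700, and at 4.51, 4.32 and 4.42 under JPX-0750. SLC3A2 stood at 1.77, 1.69 and 1.64, and at 1.29, 1.26 and 1.23. For these 2 genes the distance from the median gene moved less than the value against 0. Scaling shifts most genes alike, so this outcome was fixed in advance and is no support for their rise. SLC1A4 under JPX-0700 did the same, at -1.96, -2.23 and -2.66 against 0 and -2.11, -2.14 and -2.20 from the median.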

How the data were processed

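MV4-11 cells were profiled with 3 libraries per group by 3′ RNA sequencing (QuantSeq), per the labels. The submitters' processing notes list the build GRCh38 and the tools STAR 2.4.2a, featureCounts 2.0.3, DESeq2, SAMtools 1.4 and FastQC 0.11.9, with no settings. The deposited table gives normalised counts for 26929 genes in 9 columns, all mapped to samples by title. In every library, each nonzero value was a whole multiple of the lowest nonzero value (tolerance 1e-06), and division by the latter gave reads. Without molecular identifiers in the protocol, reads may repeat a molecule, and intervals on reads and floors of 3 reads cover counting error only.

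limma 3.58.1 (R 4.3.3) was fitted to log2(normalised count + 1) of the 12301 genes with a mean of at least 5, leaving out 14628, 8846 of them with no value above 0. The fit had 1 mean per group over all 9 libraries, 6 residual degrees of freedom and variances following a trend. Tests were two-sided, with Benjamini-Hochberg adjustment over all genes tested and a threshold of 0.05. "Rose" and "fell" refer to it. On simulated counts for the JPX-0700 comparison (10251 genes, dispersion 0.2), the test recovered 1 of 50 genes changed 2-fold, 16 of 50 changed 4-fold, 42 of 50 changed 8-fold and 48 of 50 changed 16-fold, with 4 false calls. The dispersion was set and not estimated from these data. All changed genes had a DMSO mean above that of SLC7A11 (9.96), so recovery at such low levels was not measured. Members with a wider spread may be recovered less often. Ratios within libraries were compared by exact permutation.

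The members, the lists beside them and the settings were chosen with earlier results of these data known. All 9 members are named. From each list, up to 6 genes past the threshold by smallest p are named, or, where none passed, the 2 with the smallest p. The 3 genes nearest in pattern are named for each member that passed.

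Same-numbered JPX-0700 and JPX-0750 libraries deviated together (correlations of 0.129, 0.171 and 0.190), and same-numbered libraries of DMSO and either compound did not (-0.143 to -0.0436). Some libraries of unlike number also did: JPX-0700 replicate 2 with JPX-0750 replicate 1 (0.153), and DMSO replicate 3 with JPX-0700 replicate 1 (0.188). The other unlike-numbered pairs of the compounds ran from -0.198 to 0.0657. These values therefore do not establish a pairing by replicate number, and the labels state none. Positions, motif windows and overlaps come from RefSeq (GRCh38.p14) and GENCODE. Another setting was each of: other pseudocounts, filters and scalings, fits on 2 groups, a replicate block and each library left out. Chosen after seeing the data were voom on recovered reads, the block on both compounds alone, and leaving out the 3 libraries with the fewest genes.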

Additional observations from a re-analysis of the deposited data

How the results depend on the processing

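SLC7A11 kept its direction and its call with both compounds in all 19 alternatives, and SLC3A2 kept its direction. Members called with JPX-0700, 2 of 9, became 1 without a filter on low values, with TMM scaling, in the fit on 2 groups and on leaving out the 3 libraries of fewest genes, and ranged from 1 to 2 with each library left out. Total-sum scaling kept the count at 2 with other genes: SLC3A2 lost its call (adjusted p = 0.141) and SLC1A5 fell (0.0307). With JPX-0750, 1 became 3 in the fit on 2 groups, 2 without those 3 libraries, and 1 to 3 with each library left out (3 without JPX-0700 replicate 3). Calls over all genes, 710 and 489, became 373 and 795 in the fits on 2 groups, 2601 and 2559 without those 3 libraries, 1299 and 945 with voom, and 390 to 954 and 254 to 1096 with each library left out. With the replicate number as a block, 2, 1 and 0 members and 694, 473 and 0 genes were called, so the block changed no member's call.

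Signs turned only where the gene had not passed. Against DMSO, SLC7A5 (JPX-0700) was -0.15 with total-sum scaling, SLC7A1 (JPX-0700) 0.020 with voom, SFXN3 (JPX-0750) 0.038 with voom, and without the 3 libraries SLC7A6 (JPX-0750) was -0.49 and SLC38A1 (JPX-0700) 0.45. With each library left out, SLC7A6 ran from -2.88 to 0.23 and from -0.21 to 1.401, SFXN3 (JPX-0750) from -1.04 to 0.045, SLC7A1 (JPX-0700) from -0.57 to 0.32 and SLC38A1 (JPX-0700) from -0.90 to 0.23. Between the compounds, SLC7A5 was 0.16 with total-sum and 0.013 with TMM scaling, SLC1A5 -0.039 with voom, and without the 3 libraries SLC7A5 was 0.36, SLC7A1 0.10 and SLC1A4 -0.94. With each library left out, SLC3A2 ran from -0.79 to 0.14, SLC7A5 from -0.36 to 0.18, SLC7A1 from -0.89 to 0.00017, SLC1A4 from -0.58 to 0.82, SLC1A5 from -0.18 to 0.38 and SLC38A2 from -0.36 to 0.50. The causes were not tested. The planned count models on recovered reads (edgeR and DESeq2) were not run. Treated libraries held fewer reads than DMSO libraries, and SLC38A1 under JPX-0750 and SLC7A11 under DMSO rest on 14 and 58 reads, which limits their folds.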
